A study of Mus musculus with 12 samples.

Results

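The HOX genes are the 4 homeobox gene clusters of the mouse, called a, b, c and d, whose members carry paralogue numbers of 1 to 13. They were taken here as the protein-coding genes whose symbols consist of Hox, a cluster letter and a number, which gave 39 genes in the annotation. Of these, 38 have an identifier among the 39179 gene identifiers counted, and Hoxd4 was not analysed here. Their transcripts were counted by RNA sequencing in calvariae, the roof of the skull, from C57BL/6 mouse embryos at embryonic day 17.5. The 12 libraries form 4 groups of 3: Runx2+/- embryos of dams given MS-275, WT embryos of dams given MS-275, Runx2+/- embryos of dams given vehicle, and WT embryos of dams given vehicle. MS-275 (entinostat) is an inhibitor of class I histone deacetylases. Dams received it intraperitoneally at 10 mg/kg, at 14.5 and again at 16.5 days post coitum, after matings at 8 weeks of age. Runx2 is the transcription factor that osteoblasts need, and Runx2+/- embryos are heterozygous for it. The labels do not say which part of Runx2 is disrupted, nor whether replicates of a group came from separate embryos or litters, so p-values measure the spread among these libraries.

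HOX proteins are transcription factors that bind DNA through the homeodomain, with TALE-class cofactors of the PBX and MEIS families. Within a cluster the genes lie in the order of their paralogue numbers, and in the embryo low numbers reach far forward, into the hindbrain and the pharyngeal arches, while high numbers stay in the tail, the genitals and the limbs. The forebrain, the midbrain and the cranial neural crest that forms most of the face and the frontal bone lack HOX expression, and the skull vault is built in that HOX-free field. Muscle, spinal cord and skin behind the head express HOX genes according to their level.

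The 39 homeoboxes were cut from the coding sequence of each gene and compared without gaps, because sharing of reads between members would blur their counts. Each is 180 bases long, and any pair was 46.1% to 93.9% identical, with a median of 61.1%. The longest identical run within a pair was 5 to 52 bases, with a median of 14. Hoxb8 and Hoxd8 are shown because they hold the same paralogue number and had different patterns over these libraries. Their homeoboxes, in GRCm38 at chr11:96284174-96284353 (+ strand) and chr2:74706525-74706704 (+ strand), differ at 35 of 180 bases, which are in capitals, and share no identical run longer than 17 bases.
Hoxb8 homeobox: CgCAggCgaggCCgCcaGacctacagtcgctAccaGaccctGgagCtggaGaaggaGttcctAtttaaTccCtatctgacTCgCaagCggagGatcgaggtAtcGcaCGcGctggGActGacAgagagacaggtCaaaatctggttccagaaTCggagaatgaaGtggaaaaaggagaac
Hoxd8 homeobox: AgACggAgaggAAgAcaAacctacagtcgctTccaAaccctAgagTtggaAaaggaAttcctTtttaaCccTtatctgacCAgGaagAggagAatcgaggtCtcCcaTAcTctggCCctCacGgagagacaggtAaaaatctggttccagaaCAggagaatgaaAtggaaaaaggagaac

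RefSeq promoter windows, from 250 bases before to 50 bases after the start (GRCm38.p6), were found for 22 HOX genes with 24 windows. These motifs were searched on both strands: TGATNNAT, the shared core of HOX and PBX dimers; TGACAG, the MEIS core; and TTTATNG, the core of the CDX factors that act on HOX clusters in the tail bud. TGATNNAT was in 4 of the 24 windows and in 8.85% of all 32851 windows, TGACAG in 2 and in 19.2%, and TTTATNG in 2 and in 10.9%. The windows of Hoxb8 (chr11:96281655-96281954, + strand), Hoxd8 (chr2:74704365-74704664, + strand) and Hoxa2 (chr6:52164782-52165081, - strand) are shown because the values of these genes in single libraries are described below, and matches are in capitals. The Hoxb8 window holds 3 matches to TTTATNG and 1 to TGATNNAT on the opposite strand. Hoxa2 has 1 match to TGATNNAT on the opposite strand and 1 to TGACAG, and Hoxd8 has none.
Hoxb8 promoter: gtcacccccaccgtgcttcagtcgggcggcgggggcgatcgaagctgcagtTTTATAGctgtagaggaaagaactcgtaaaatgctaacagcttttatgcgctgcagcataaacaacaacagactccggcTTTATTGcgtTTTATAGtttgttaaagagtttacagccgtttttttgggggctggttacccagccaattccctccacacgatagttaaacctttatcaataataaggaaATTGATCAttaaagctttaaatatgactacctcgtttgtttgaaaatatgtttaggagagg
Hoxd8 promoter: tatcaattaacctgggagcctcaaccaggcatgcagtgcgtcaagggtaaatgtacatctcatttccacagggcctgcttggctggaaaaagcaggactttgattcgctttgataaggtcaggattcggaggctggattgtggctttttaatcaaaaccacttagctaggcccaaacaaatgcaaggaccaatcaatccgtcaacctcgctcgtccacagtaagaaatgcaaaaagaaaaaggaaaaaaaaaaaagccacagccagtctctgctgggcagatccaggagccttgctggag
Hoxa2 promoter: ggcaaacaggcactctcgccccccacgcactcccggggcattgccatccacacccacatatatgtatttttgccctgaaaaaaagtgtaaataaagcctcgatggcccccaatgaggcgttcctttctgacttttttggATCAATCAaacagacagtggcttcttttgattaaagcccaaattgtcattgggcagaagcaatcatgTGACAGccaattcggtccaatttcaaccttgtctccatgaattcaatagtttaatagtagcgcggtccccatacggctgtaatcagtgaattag

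Total counts in genes were 13307456 to 19399760 per library, and 3 counts, the limit that a count of 0 allows, came to 0.120 to 0.279 CPM, the counts of a gene per 1000000 scaled counts of its library. The scaling was edgeR's TMM method, whose factors were 0.598 to 0.820 in 5 MS-275 libraries, 1.33 in replicate 3 of Runx2+/- MS-275 and 1.18 to 1.32 in the vehicle libraries. Intervals and limits cover counting error only. Runx2 itself was at 84.1, 93.5 and 34.1 CPM in Runx2+/- MS-275, 111, 131 and 88.2 CPM in WT MS-275, at 65.3, 32.8 and 58.1 CPM in Runx2+/- vehicle and 45.5, 42.4 and 46.1 CPM in WT vehicle, so the vehicle genotypes overlapped. The count does not check the genotype labels, since which part of the gene is changed is not stated. Some libraries stood apart from their group. Runx2+/- MS-275 replicate 3 was at 3718 CPM for the summed osteoblast markers, against 70900.0 and 40658.1 CPM in the other two, and at 1960.0 CPM for the summed epidermal markers, against 49.7 and 52.0 CPM. Lens markers summed to 68.3 CPM in Runx2+/- vehicle replicate 3 and 86.3 CPM in WT vehicle replicate 3, against 729.6 to 983 CPM in the other vehicle libraries. Runx2+/- vehicle replicate 2 stood apart in the HOX genes themselves. For each comparison, the median over the HOX members is given with and without the libraries that move it most.

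HOX transcripts were rare. All members together held 6523 counts over the 12 libraries, 0.00318% of all counts in genes. The HOX sum stood at 9.19, 11.7 and 21.4 CPM in Runx2+/- MS-275, 10.3, 10.5 and 10.4 CPM in WT MS-275, at 15.03, 107 and 34.9 CPM in Runx2+/- vehicle and 15.8, 16.1 and 59.5 CPM in WT vehicle. The WT MS-275 libraries lay together below all WT vehicle libraries, while the Runx2+/- groups overlapped. In bulk tissue, fewer cells of a type and less RNA per cell cannot be told apart.

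**Figure D1:**
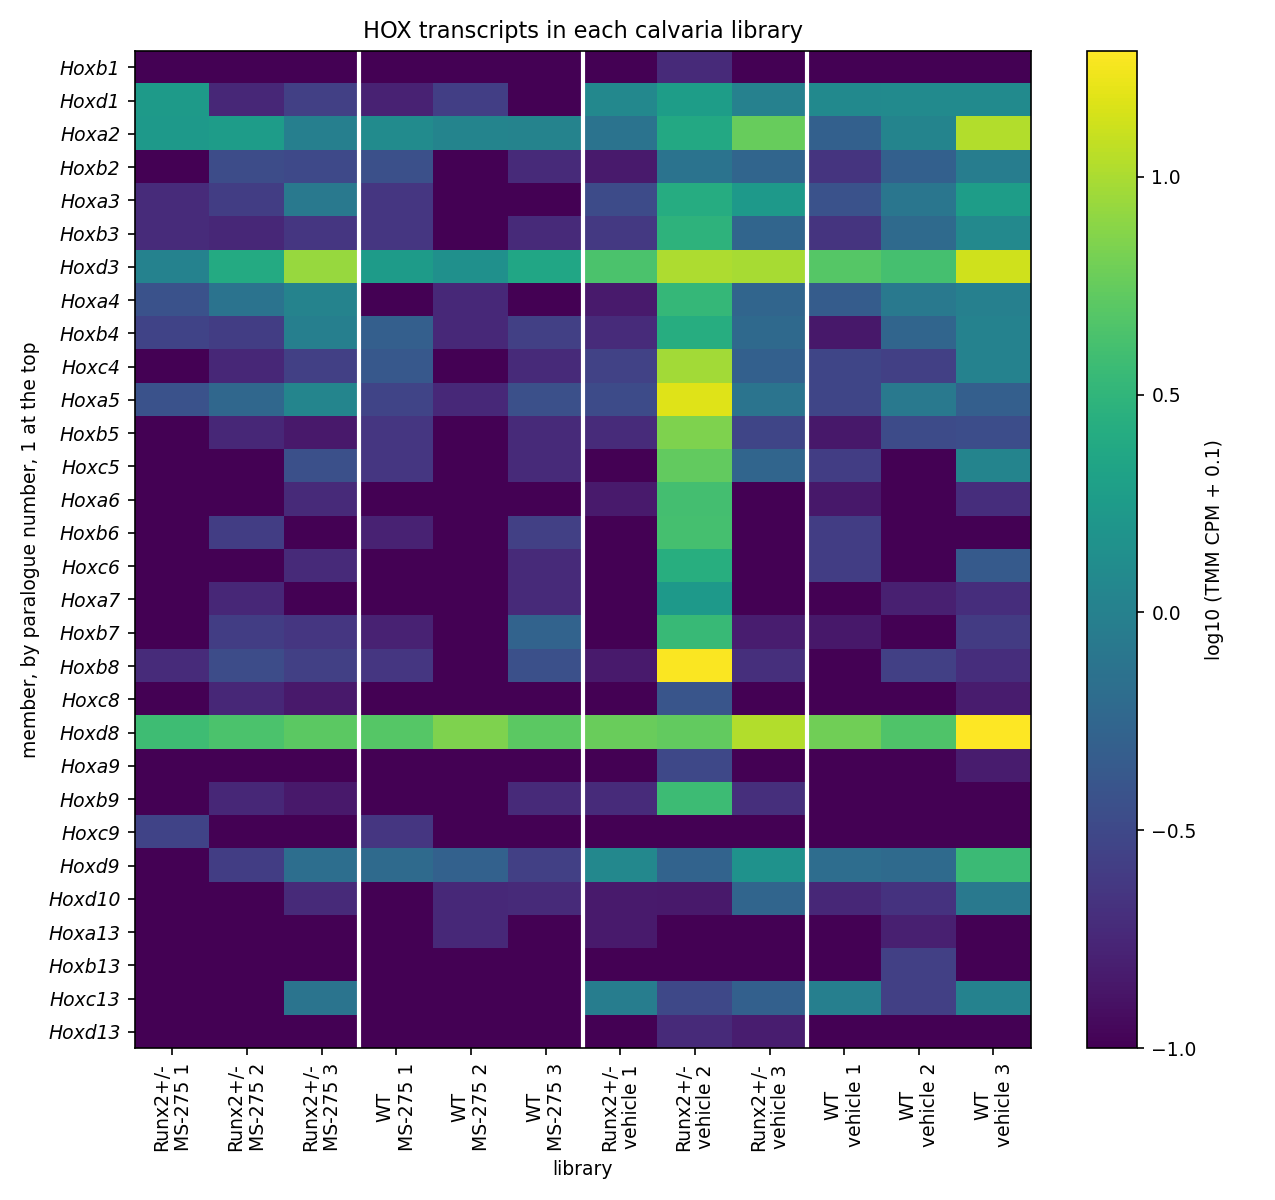
Level of HOX members with a count (rows, by paralogue number, 1 at the top) in each of the 12 libraries (columns), coloured by log10 of TMM CPM plus 0.1. Hoxd3 and Hoxd8 are lit in every column, and the block from Hoxc4 to Hoxb9 is lit in Runx2+/- vehicle replicate 2.

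Per kilobase of merged exons, the scale on which genes can be compared, Hoxd8 had the highest median over the 12 libraries, 1.92 CPM per kb. Hoxd3 followed at 0.995, Hoxa2 at 0.607 and Hoxd1 at 0.532 CPM per kb. Hoxd8 led in 10 of the 12 libraries. The exceptions were Runx2+/- MS-275 replicate 3, where Hoxd3 led at 2.05 against 1.86 CPM per kb for Hoxd8, and Runx2+/- vehicle replicate 2, where Hoxa5 led at 7.87 and Hoxb8 followed at 7.08 CPM per kb. Cluster d gave the largest share of the HOX sum in every library except Runx2+/- vehicle replicate 2.

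By paralogue number the members were summed in 3 classes. Members 1 to 3, those of the hindbrain and pharyngeal arches, summed to 4.46, 5.11 and 11.1 CPM in Runx2+/- MS-275, 3.45, 2.78 and 3.36 CPM in WT MS-275, to 6.43, 20.6 and 19.2 CPM in Runx2+/- vehicle and 6.74, 8.02 and 29.7 CPM in WT vehicle. Members 4 to 8, those of the neck and trunk, summed to 4.55, 6.38 and 8.92 CPM in Runx2+/- MS-275, 6.18, 7.12 and 6.73 CPM in WT MS-275, to 6.52, 81.9 and 13.3 CPM in Runx2+/- vehicle and 7.50, 7.09 and 24.6 CPM in WT vehicle. Members 9 to 13 stayed between 0.186 and 5.29 CPM in all 12 libraries. In WT MS-275 the sum of members 1 to 3 was below every WT vehicle library, while that of members 4 to 8 overlapped at its upper end with the lowest WT vehicle library. As a share of the HOX sum, members 4 to 8 made up 60.1%, 68.0% and 64.5% in WT MS-275, against 47.6%, 43.9% and 41.3% in WT vehicle. These sums were not tested, and Hoxd8 carries most of the 4 to 8 class outside Runx2+/- vehicle replicate 2.

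**Figure D2:**
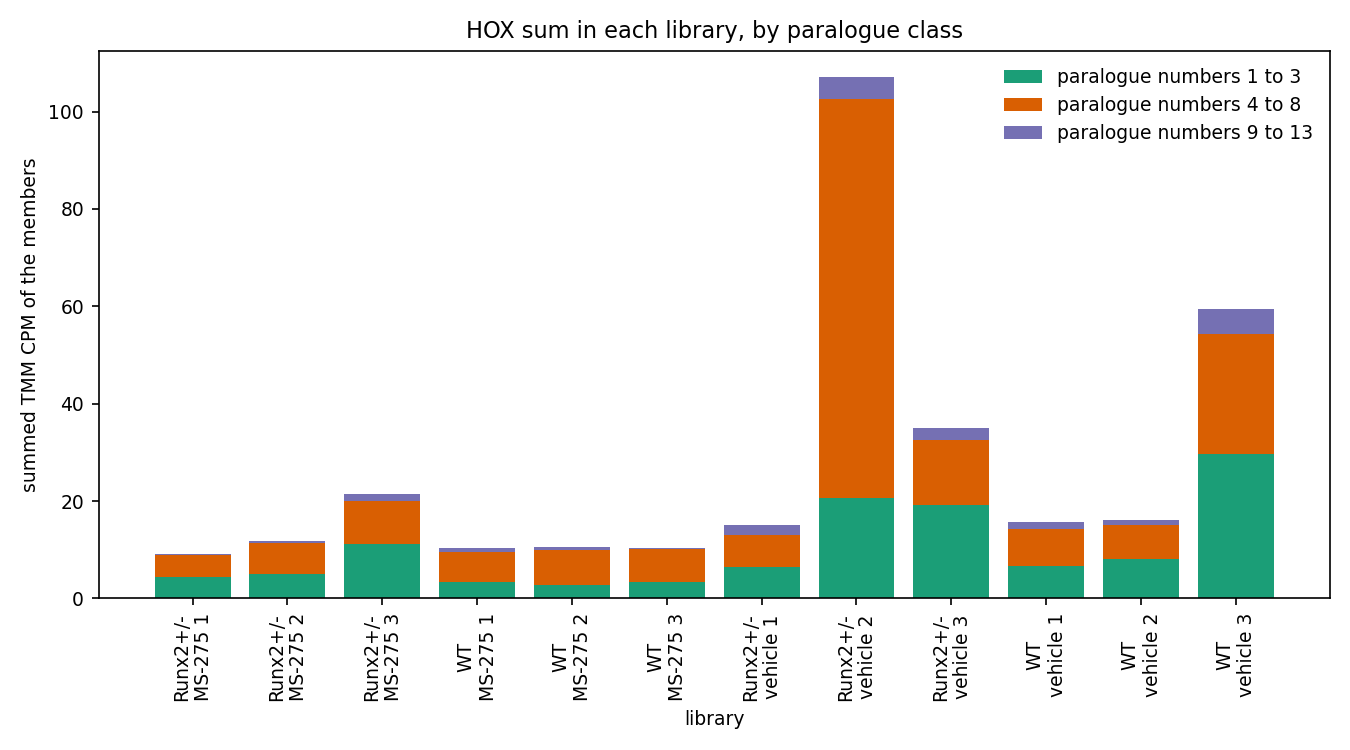
Summed TMM CPM of the HOX members in each library, stacked by paralogue class. Runx2+/- vehicle replicate 2 reaches 107 CPM, of which 81.9 CPM are paralogue numbers 4 to 8, and WT vehicle replicate 3 reaches 59.5 CPM.

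The posterior end of the clusters was nearly silent. Of the 12 members numbered 10 to 13, 7 had no count in any library: Hoxa10, Hoxc10, Hoxa11, Hoxc11, Hoxd11, Hoxc12 and Hoxd12. Hoxa13, Hoxb13 and Hoxd13 had 3 counts each over all 12 libraries. Hoxd10, a gene of lumbar motor neurons and the limb, had 34 counts, of which 15 fell in WT vehicle replicate 3 and 9 in Runx2+/- vehicle replicate 3. The exception was Hoxc13, a gene of hair shaft and nail cells, which had 90 counts. Its values are given with the drug comparisons, since it was read in all 6 vehicle libraries and in a single MS-275 library. For a member with no count a level of up to 0.279 CPM was within the limit of the library with the smallest scaled depth.

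In Runx2+/- vehicle replicate 2 the HOX genes of the neck and trunk were present as a block. Of the 38 members, 20 had their highest level there, and 14 were at least 3 times the next library. All 14 were among the 16 members of clusters a, b and c numbered 4 to 9. That set is not one of the 3 classes above. It was drawn with these values known and leaves out cluster d, so this count is a description only. The share of all genes highest in that library, or in any other single library, is not given here. Hoxb8 was at 0.0929, 0.239 and 0.174 CPM in Runx2+/- MS-275, 0.130, 0 and 0.259 CPM in WT MS-275, at 0.0462, 18.6 and 0.102 CPM in Runx2+/- vehicle and 0, 0.173 and 0.0989 CPM in WT vehicle. Hoxb8, a gene of the spinal cord, thus had 433 counts in that library (95% Poisson interval 16.9 to 20.5 CPM) and at most 4 in any other. It was 72.0-fold above the next library.

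Hoxa5 was at 0.279, 0.479 and 1.00 CPM in Runx2+/- MS-275, 0.195, 0.0819 and 0.259 CPM in WT MS-275, at 0.231, 14.8 and 0.662 CPM in Runx2+/- vehicle and 0.199, 0.750 and 0.396 CPM in WT vehicle. Hoxa5, which patterns the brachial level and the airway, had 343 of its 426 counts in replicate 2 of Runx2+/- vehicle, and every other library lay at or below 1.00 CPM. Hoxc4 was at 0, 0.0798 and 0.174 CPM in Runx2+/- MS-275, 0.326, 0 and 0.0863 CPM in WT MS-275, at 0.185, 9.17 and 0.408 CPM in Runx2+/- vehicle and 0.199, 0.173 and 0.939 CPM in WT vehicle. Hoxb5 was at 0, 0.0798 and 0.0435 CPM in Runx2+/- MS-275, 0.130, 0 and 0.0863 CPM in WT MS-275, at 0.0925, 6.85 and 0.204 CPM in Runx2+/- vehicle and 0.0399, 0.231 and 0.247 CPM in WT vehicle. Hoxb5 also acts in the neural crest of the gut, and Hoxc4 patterns the neck and upper thorax. Hoxc5 was at 0, 0 and 0.261 CPM in Runx2+/- MS-275, 0.130, 0 and 0.0863 CPM in WT MS-275, at 0, 5.38 and 0.458 CPM in Runx2+/- vehicle and 0.160, 0 and 0.989 CPM in WT vehicle. Hoxc5 acts with Hoxa5 in motor neurons of the phrenic nerve. For each of these genes the other 11 libraries lay close together and far below this one.

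The rest of the block had fewer counts but the same shape. Hoxa6, Hoxb6, Hoxb7, Hoxb9 and Hoxc6 were at 3.92, 4.00, 3.36, 3.62 and 2.63 CPM there, and at most 0.431 CPM in any other library. Hoxa7 was at 1.64 CPM, against at most 0.0989 CPM elsewhere. Hoxa4 was at 3.23 CPM, 3.37-fold above the next library, and Hoxb4, just short of 3-fold, at 2.58 CPM, 2.75-fold above it. Hoxc8 and Hoxa9 were in the block by ratio but had 7 and 5 counts. Hoxc9 had no count there. Among members 1 to 3, Hoxb3 was 2.69-fold and Hoxa3 1.40-fold above the next library, Hoxd1 was 1.06-fold above it, and Hoxb1 had 2 counts there and none elsewhere. Hoxa2, Hoxb2 and Hoxd3 were highest in another library.

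The counted cluster d members from Hoxd8 on did not share the block. Hoxd8 was at 5.43 CPM in that library, inside the range of 3.71 to 19.3 CPM of the other 11, Hoxd9 at 0.431 CPM and Hoxd10 at 0.0431 CPM. Hoxb8 and Hoxd8, whose homeoboxes stand above, thus shared a paralogue number and not this pattern. All 15665 genes with at least 30 counts in that library were ordered by their ratio to the next library, after the values were seen. The next library was set to at least the level of 3 counts, averaged over the other 11 libraries. In that order Hoxb8 came first and 11 of the first 13 genes were HOX members. The other two were Slc6a5, the glycine transporter of spinal and brainstem interneurons, and Lamp5.

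Some other markers were also highest in Runx2+/- vehicle replicate 2. Slc6a5 was at 0, 0.160 and 0.348 CPM in Runx2+/- MS-275, 0.260, 0 and 0 CPM in WT MS-275, at 0.231, 18.3 and 0.357 CPM in Runx2+/- vehicle and 0.160, 0.404 and 0 CPM in WT vehicle. Lhx1 was at 0, 0.319 and 0.827 CPM in Runx2+/- MS-275, 0.195, 0 and 0 CPM in WT MS-275, at 0.832, 8.48 and 0.713 CPM in Runx2+/- vehicle and 0.957, 1.73 and 0.396 CPM in WT vehicle. Lhx1 marks spinal and hindbrain interneurons. Of the 17 hindbrain and spinal cord markers listed, 13 were highest in Runx2+/- vehicle replicate 2, where they summed to 104 CPM, against 0.982 to 52.2 CPM in the other 11 libraries. Mnx1, a motor neuron marker, was at 0 there. Of 15 neuron markers, 12 were highest there, at a sum of 3737 CPM against 114 to 3361 CPM. The share of all genes that were highest in Runx2+/- vehicle replicate 2 is not given here. The trunk mesoderm and limb list summed to 118 CPM in that library, near the low end of the 118 to 334 CPM of the others, with Tbx5, a forelimb gene, at 0.172 CPM. Liver transcripts, which were looked at after the values were seen, were also highest there: Alb was at 471 CPM and Afp at 179 CPM, against at most 122 and 48.4 CPM. The part of these markers in the HOX values was not tested.

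**Figure D3:**
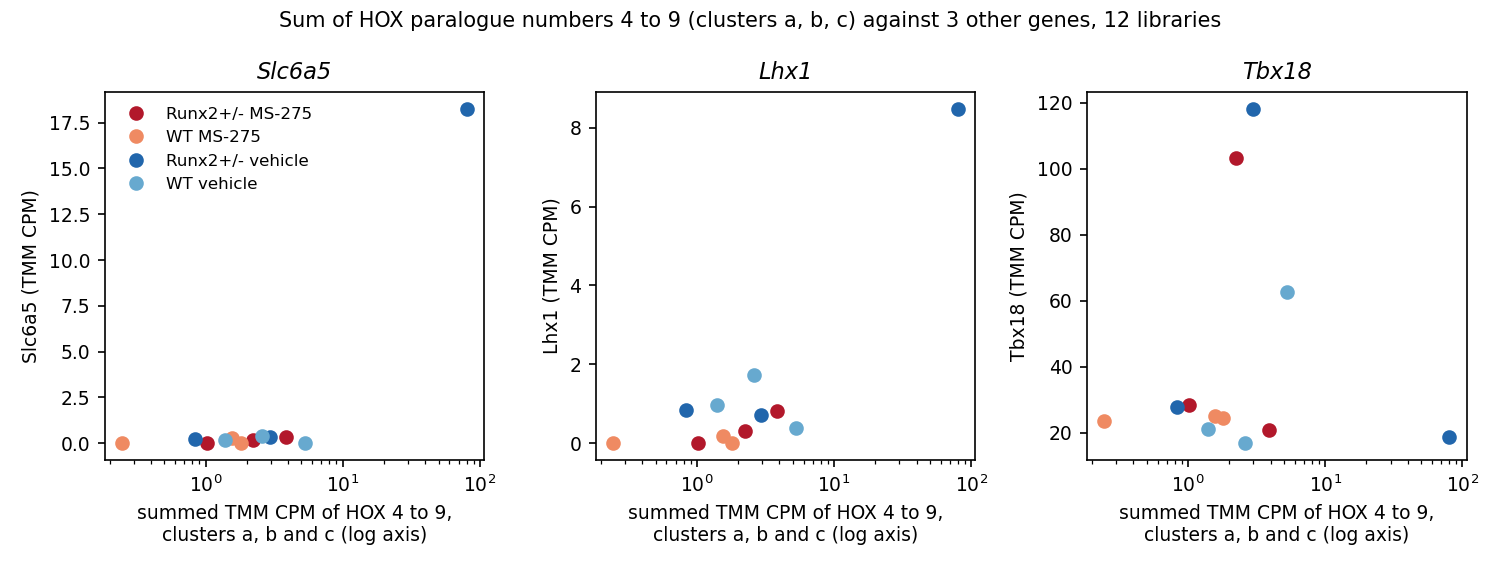
Summed TMM CPM of the 16 HOX members numbered 4 to 9 in clusters a, b and c (log axis) against TMM CPM of Slc6a5, Lhx1 and Tbx18, 1 point per library. The set of 16 was drawn with these values known. Runx2+/- vehicle replicate 2 stands at 80.3 CPM of the HOX sum with 18.3 CPM of Slc6a5, and at 18.6 CPM of Tbx18, near the low end of that gene.

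A different set led in replicate 3 of the vehicle groups. Hoxa2 was at 1.58, 1.76 and 0.870 CPM in Runx2+/- MS-275, 1.17, 0.982 and 0.949 CPM in WT MS-275, at 0.647, 2.28 and 5.60 CPM in Runx2+/- vehicle and 0.399, 0.980 and 10.4 CPM in WT vehicle. Hoxa2 is the gene that gives the second pharyngeal arch its skeletal identity. Its 2 highest libraries were WT vehicle replicate 3 and Runx2+/- vehicle replicate 3, and the other 4 vehicle libraries overlapped with all 6 MS-275 libraries. Hoxd8 was at 3.71, 4.23 and 5.09 CPM in Runx2+/- MS-275, 4.75, 6.88 and 5.00 CPM in WT MS-275, at 5.78, 5.43 and 10.5 CPM in Runx2+/- vehicle and 6.10, 4.50 and 19.3 CPM in WT vehicle. The same 2 libraries were the highest for Hoxd8, and the other 10 lay between 3.71 and 6.88 CPM. Hoxd9 was at 0, 0.160 and 0.566 CPM in Runx2+/- MS-275, 0.521, 0.409 and 0.173 CPM in WT MS-275, at 1.06, 0.431 and 1.38 CPM in Runx2+/- vehicle and 0.558, 0.519 and 3.56 CPM in WT vehicle. Hoxd9, a gene of the lumbar region and the proximal limb, was again highest in WT vehicle replicate 3, with Runx2+/- vehicle replicate 3 second.

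Of the 31 members with a count, 8 were highest in WT vehicle replicate 3, where 15 members had 10 counts or more. The members 4 to 9 of clusters a, b and c summed to 5.29 CPM there, against 80.3 CPM in Runx2+/- vehicle replicate 2, so the 2 libraries were high in different members. Tbx18, a gene of mesoderm and mesenchyme, was at 28.2, 103 and 20.9 CPM in Runx2+/- MS-275, 25.1, 23.5 and 24.5 CPM in WT MS-275, at 27.7, 18.6 and 118 CPM in Runx2+/- vehicle and 21.2, 16.8 and 62.5 CPM in WT vehicle. Its 3 highest libraries were Runx2+/- vehicle replicate 3, Runx2+/- MS-275 replicate 2 and WT vehicle replicate 3. Tbx18 is in the list of 14 trunk mesoderm and limb markers and also in that of meninges and dura. The 14 summed to 334 and 274 CPM in the replicate 3 libraries of Runx2+/- vehicle and WT vehicle. In the other 4 vehicle libraries they summed to 118 to 192 CPM. Of the 14, 6 were above those 4 libraries in both (Meox2, Pax1, Nkx3-2, Tbx18, Tbx15 and Foxc2) and 5 were below them in both (Uncx, Pax9, Tbx5, Pitx1 and Pax3). Uncx, a gene of the posterior somite, was at 1.43 and 0 CPM there, against 2.36 to 2.80 CPM in the other 4. Other lists moved as well. Of 11 markers of meninges and dura, 9, with Tbx18 among them, were above the other 4 vehicle libraries in both replicate 3 libraries. Of 15 neuron markers, 15 were below them in both. The share of all genes that lay apart in this way is not given here. Markers of the head's HOX-free field summed to 171 and 104 CPM in these libraries, against 249.7 to 344 CPM in the other 4 vehicle libraries. The part of these markers in the HOX values was not tested.

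**Figure D4:**
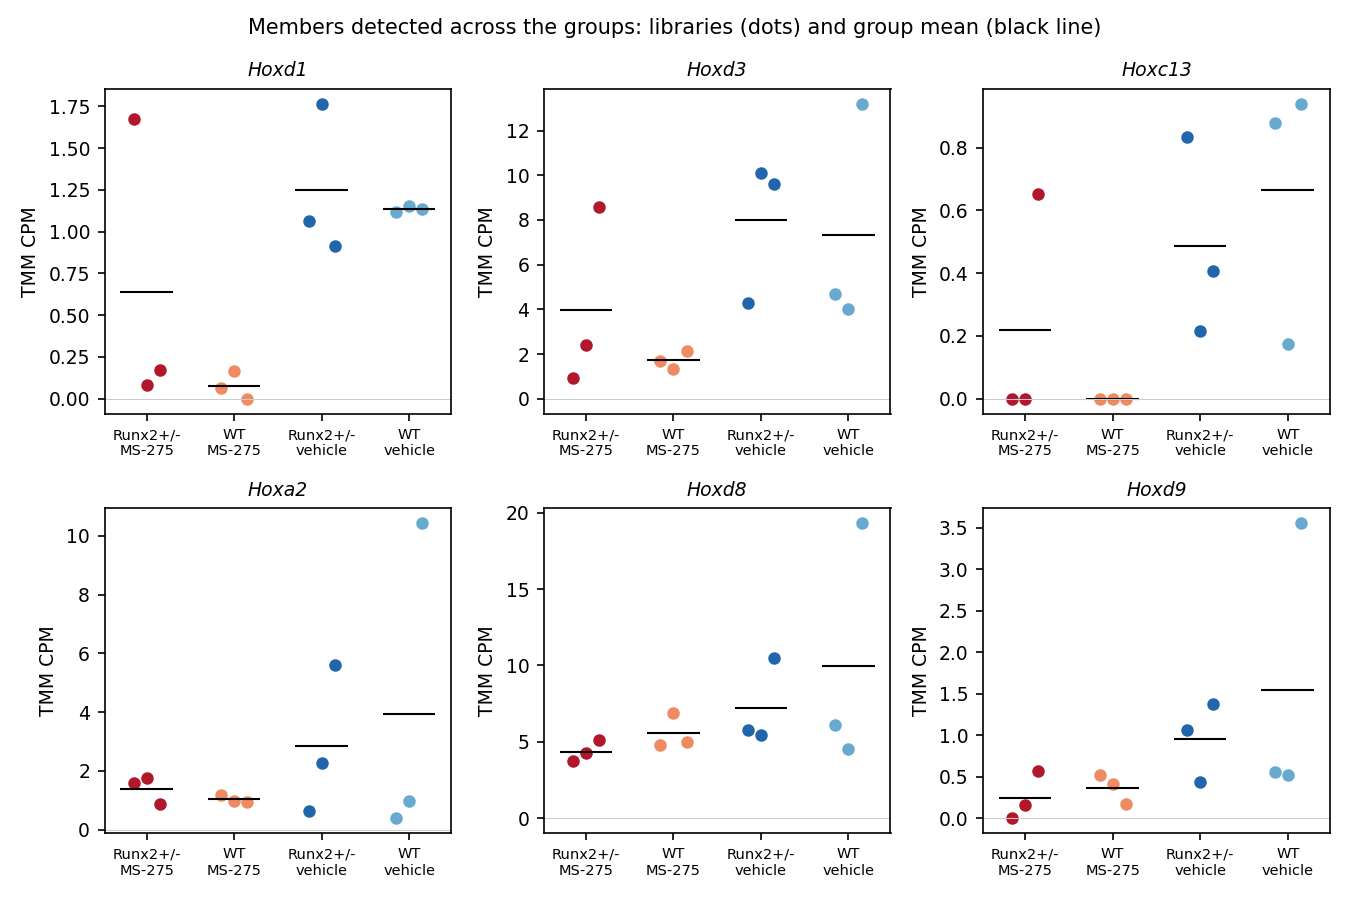
TMM CPM of 6 HOX members in each library (dots) with the group mean (black line), on an axis of its own for each gene. Hoxd1 and Hoxd3 in WT MS-275 lie below every WT vehicle library, and in each vehicle group the highest dot of Hoxa2, Hoxd8 and Hoxd9 is replicate 3.

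MS-275 in WT embryos was the comparison with calls across the whole table. By edgeR's quasi-likelihood test 3414 of 17967 genes differed between WT MS-275 and WT vehicle at an adjusted p below 0.05, which is 19.0%, with 9.67% higher and 9.33% lower. Of the 38 members, 11 passed the filter on low counts: Hoxd1, Hoxa2, Hoxa3, Hoxb3, Hoxd3, Hoxa4, Hoxb4, Hoxa5, Hoxd8, Hoxd9 and Hoxc13. Of these, 1 fell and none rose. All 11 had a negative estimate, with a median log2 fold change of -2.09 (-2.03 with Hoxc13 at its bound), beside -0.13 over all genes tested. Scaling by DESeq2 size factors or by library size alone kept all 11 below 0. Without WT vehicle replicate 3 the median was -1.34 and 9 of 12 members tested were below 0, and without the 3 libraries that stood apart it was -1.36 with 8 of 11 below 0. A member can pass that filter through the group in which it is high, so the shared direction is a description only. Of the 11, 5 were lower without overlap between the groups (Hoxd1, Hoxa3, Hoxd3, Hoxa4 and Hoxc13), beside 27.5% of all genes tested, and 0 were higher without overlap, beside 27.3%.

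The member that fell was Hoxd1, a gene of the hindbrain and of pain-sensing neurons. Hoxd1 was at 0.0651, 0.164 and 0 CPM in WT MS-275, against 1.12, 1.15 and 1.14 CPM in WT vehicle. These were 3 counts in 3 MS-275 libraries against 71 counts in the vehicle libraries, and the groups did not overlap. The level was 14.8-fold lower, with a counting interval of 4.86-fold to 73.5-fold, and the log2 fold change was -3.77 (SE 1.11, adjusted p = 0.0458). The call is close to the threshold: of the 12 fits that leave out 1 library each, 3 kept it (those without WT vehicle replicate 3, Runx2+/- MS-275 replicate 1 or Runx2+/- MS-275 replicate 3), and the adjusted p ranged from 0.0155 to 0.132. In 8 of those fits no gene was called at all, among them the one without Runx2+/- vehicle replicate 2. Without the 3 libraries that stood apart (WT vehicle replicate 3, Runx2+/- vehicle replicate 3 and Runx2+/- MS-275 replicate 3), Hoxd1, Hoxd3 and Hoxc13 were called, all lower. These were 3 of 11 members, in a fit that called 10887 of 18065 genes, 5743 of them lower. The share of members called was thus no higher than that over all genes.

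Hoxd3, which shapes the first neck vertebrae, had the most counts among those near the threshold. Hoxd3 was at 1.69, 1.31 and 2.16 CPM in WT MS-275, against 4.71, 4.04 and 13.2 CPM in WT vehicle. Every MS-275 library lay below every vehicle library, with WT vehicle replicate 3 far above the other two. The log2 fold change was -2.09 (SE 0.76, adjusted p = 0.0651) by edgeR, -1.34 without WT vehicle replicate 3 (adjusted p = 0.164) and -2.09 without Runx2+/- MS-275 replicate 3 (adjusted p = 0.0169). The fit without Runx2+/- MS-275 replicate 3 called 8480 of 18216 genes and 4 of 15 members. Hoxa3 was at 0.130, 0 and 0 CPM in WT MS-275, against 0.279, 0.692 and 1.78 CPM in WT vehicle. Hoxa3 is required for the thymus and parathyroid, and its log2 fold change by edgeR was -4.03 (SE 1.37, adjusted p = 0.0569), from 2 against 55 counts, a level 17.2-fold lower (95% counting interval 4.54 to 146). Hoxa4 was at 0, 0.0819 and 0 CPM in WT MS-275, against 0.359, 0.750 and 0.890 CPM in WT vehicle. Hoxa4, a neck gene, had 1 against 40 counts and a log2 fold change of -4.35 (SE 1.62, adjusted p = 0.0672) by edgeR, a level 25.01-fold lower (4.24 to 1012). For both, the MS-275 libraries lay below all vehicle libraries.

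Hoxc13 was at 0, 0 and 0 CPM in WT MS-275, against 0.877, 0.173 and 0.939 CPM in WT vehicle. With 0 against 44 counts, Hoxc13 was at least 2.84-fold lower (3 counts per library, a mean of 0.233 CPM, as the limit), and its adjusted p was 0.0555 by edgeR. The epidermis markers of the same libraries fell: 13 of 13 tested, with Krt5 at 0.521, 2.21 and 0.259 CPM in WT MS-275 against 362, 218 and 436 CPM in WT vehicle. Beside 9.33% of all genes tested that were lower, 3 of 13 hair follicle markers tested fell (Shh, Foxn1 and Krt17). Their sums were 40.0 to 52.0 CPM in WT MS-275 and 1489.8 to 4374 CPM in WT vehicle for epidermis, while hair follicle sums were 38.4 to 50.6 CPM in WT MS-275 and 85.5 to 153 CPM in WT vehicle. Most of the hair follicle sum in WT MS-275 was Dlx3, at 30.1, 36.0 and 17.8 CPM, and Msx2, at 13.3, 11.4 and 12.3 CPM, genes that bone also uses. The hair keratins Krt25, Krt27, Krt71, Krt73 and Krt35 were at 0 to 0.173 CPM in WT MS-275, against 0.544 to 16.8 CPM in WT vehicle. The part of skin in the Hoxc13 value was not tested.

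The other 6 members tested did not pass, with log2 fold changes of -0.85 to -2.81. Hoxb3 was at 0.130, 0 and 0.0863 CPM in WT MS-275, against 0.120, 0.519 and 1.09 CPM in WT vehicle. Hoxb3, a hindbrain and arch gene, had a log2 fold change of -2.81 (SE 1.32, adjusted p = 0.116) by edgeR, with overlapping groups and 3 against 34 counts, a level 7.09-fold lower (95% counting interval 2.23 to 36.1). For Hoxd8 and Hoxa2 the direction rested on 1 library. The log2 fold change of Hoxd8 was -0.85 (SE 0.51, adjusted p = 0.199) with all libraries and 0.07 without WT vehicle replicate 3. That of Hoxa2 was -1.92 (SE 1.09, adjusted p = 0.176) with all libraries and 0.61 without WT vehicle replicate 3. Hoxd9 had a log2 fold change of -2.03 (SE 1.01, adjusted p = 0.131) by edgeR, and -0.52 without WT vehicle replicate 3. Hoxa5 and Hoxb4, members of the neck and upper trunk, had estimates of -1.27 and -1.07, and neither passed. Hoxb4 was at -0.08 without WT vehicle replicate 3.

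**Figure D5:**
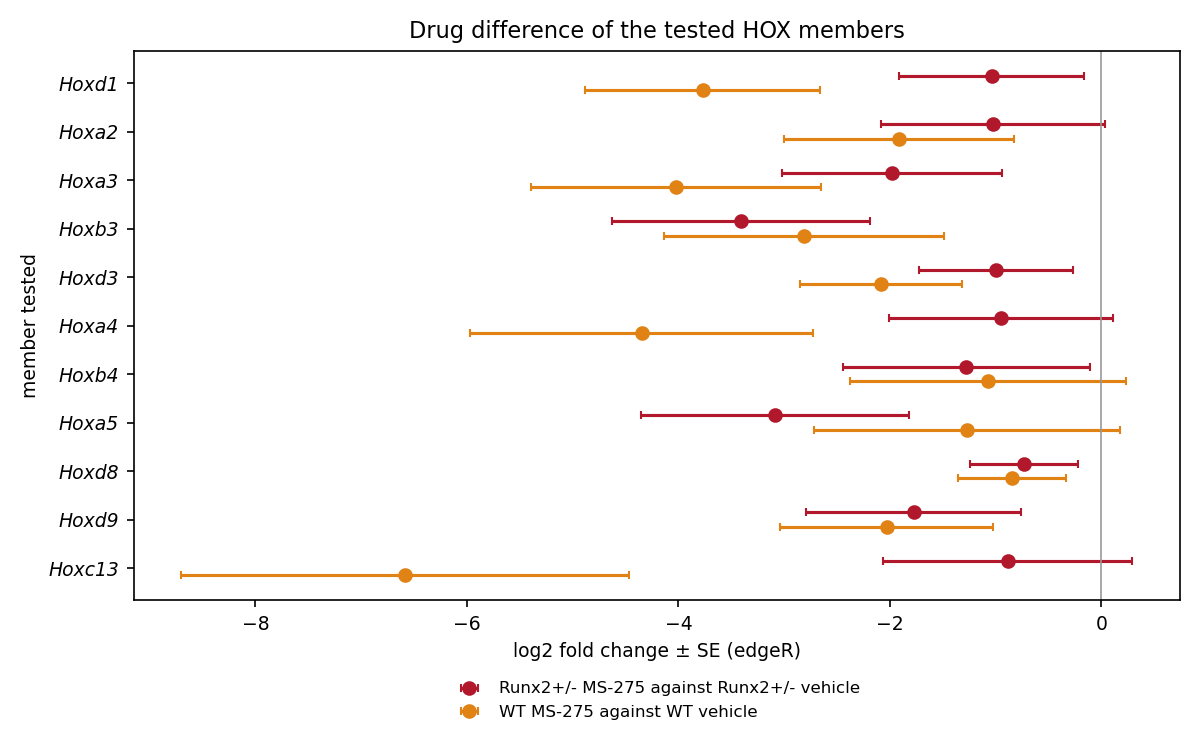
edgeR log2 fold change with its standard error, derived from the F statistic of the test, for the 11 HOX members tested. MS-275 is set against vehicle in Runx2+/- embryos and in WT embryos. All 22 estimates are below 0, and the largest, Hoxc13 in WT at -6.58, comes from a group with no count and depends on the prior count of the fit.

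In Runx2+/- embryos no gene was called by edgeR between MS-275 and vehicle (0%), with 3782 genes at an unadjusted p below 0.05, and the DESeq2 test called 1280 genes and no HOX member. The 11 members again had negative estimates, with a median log2 fold change of -1.04 beside -0.04 over all genes. That median was -2.59 without Runx2+/- MS-275 replicate 3 (15 members tested), -0.85 without Runx2+/- vehicle replicate 2 (12 tested, 8 below 0) and -2.97 without the 3 libraries that stood apart (10 of 11 below 0). Of them 2, Hoxb3 and Hoxd8, were lower without overlap, beside 8.56% of all genes tested, and 0 were higher, beside 6.33%. Hoxb3 was at 0.0929, 0.0798 and 0.131 CPM in Runx2+/- MS-275, against 0.139, 2.93 and 0.458 CPM in Runx2+/- vehicle. Its groups did not overlap, and its log2 fold change was -3.40 (SE 1.22, adjusted p = 0.187) by edgeR, the nearest to the threshold, and -1.44 without Runx2+/- vehicle replicate 2. Hoxa5 was at 0.279, 0.479 and 1.00 CPM in Runx2+/- MS-275, against 0.231, 14.8 and 0.662 CPM in Runx2+/- vehicle. Its log2 fold change by edgeR was -3.09 (SE 1.27, adjusted p = 0.211) with all libraries and 0.44 without Runx2+/- vehicle replicate 2, the library of the trunk block. Hoxa4 and Hoxb4 likewise had estimates of -0.95 and -1.28 with it and of 1.34 and 0.53 without it.

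Hoxd3 was at 0.929, 2.39 and 8.57 CPM in Runx2+/- MS-275, against 4.30, 10.1 and 9.63 CPM in Runx2+/- vehicle. Hoxd1 was at 1.67, 0.0798 and 0.174 CPM in Runx2+/- MS-275, against 1.06, 1.77 and 0.917 CPM in Runx2+/- vehicle. Hoxc13 was at 0, 0 and 0.653 CPM in Runx2+/- MS-275, against 0.832, 0.215 and 0.408 CPM in Runx2+/- vehicle. For Hoxd3 and Hoxc13 Runx2+/- MS-275 replicate 3 reached the vehicle range, while for Hoxd1 it was replicate 1, with 18 of the group's 23 counts. The log2 fold change of Hoxd1 was -1.04 (SE 0.88, adjusted p = 0.517) by edgeR, and -3.15 without Runx2+/- MS-275 replicate 1. The log2 fold change of Hoxd3 was -0.99 (SE 0.73, adjusted p = 0.449) by edgeR with all libraries and -2.26 (adjusted p = 0.0306) without Runx2+/- MS-275 replicate 3. The fit without that library called 5955 of 18216 genes and 1 of 15 members. Hoxa3 was at 0.0929, 0.160 and 0.740 CPM in Runx2+/- MS-275, against 0.231, 2.50 and 1.63 CPM in Runx2+/- vehicle. Hoxa3 had a log2 fold change of -1.98 (SE 1.04, adjusted p = 0.297) by edgeR, of -3.43 without Runx2+/- MS-275 replicate 3 (adjusted p = 0.0694) and of -1.35 without Runx2+/- vehicle replicate 2 (adjusted p = 0.647). The 3 libraries that stood apart (Runx2+/- MS-275 replicate 3 and the vehicle replicate 3 of both genotypes) were also left out together. In that fit edgeR called 9543 of 18065 genes, 5222 of them lower. It called 5 of 11 members, Hoxa3, Hoxa5, Hoxb3, Hoxd3 and Hoxd9, all lower. That fit still holds Runx2+/- vehicle replicate 2 as 1 of 2 Runx2+/- vehicle libraries.

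Runx2+/- vehicle against WT vehicle gave no call over the whole table by edgeR or DESeq2 (0%), with 55 genes at an unadjusted p below 0.05 by edgeR. The median log2 fold change of the 11 members was 0.14, beside -0.01 over all genes, with 7 estimates above 0. Hoxa5 had the largest, 3.55 (SE 1.29, adjusted p = 1.00) by edgeR, and 0.01 without Runx2+/- vehicle replicate 2. Without that library 10 of 12 members tested were below 0, at a median of -0.31. Without WT vehicle replicate 3, 1 of 12 was below 0, at a median of 1.25, and without the 3 libraries that stood apart 1 of 11, at 1.14. The trunk block stood in 1 of the 3 Runx2+/- vehicle libraries, and replicates 1 and 3 held 0.832 and 2.95 CPM of it, against 1.40 to 5.29 CPM in WT vehicle.

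Runx2+/- MS-275 against WT MS-275 also gave no call by edgeR (0%), with 2832 genes at an unadjusted p below 0.05, and 702 calls by DESeq2 with no HOX member among them. Of the 11 members 9 were above 0, with a median of 1.22 beside 0.05 over all genes. Without Runx2+/- MS-275 replicate 3 the median was 0.027, with 9 of 15 members tested above 0, and without the 3 libraries that stood apart it was 0.115. Hoxa4 was at 0.279, 0.638 and 0.958 CPM in Runx2+/- MS-275, against 0, 0.0819 and 0 CPM in WT MS-275, without overlap. Its log2 fold change was 4.31 (SE 1.63, adjusted p = 0.278) by edgeR, from 33 against 1 counts, a level 27.9-fold higher (95% counting interval 4.68 to 1136). That of Hoxd1 was 2.87 (SE 1.15, adjusted p = 0.288) by edgeR, from 23 against 3 counts (6.49-fold, 1.96 to 33.8), and 0.76 without Runx2+/- MS-275 replicate 1. The interaction, which is the fold change with MS-275 in Runx2+/- less the one in WT, was not called for any gene by edgeR (0%), with 953 at an unadjusted p below 0.05, and by DESeq2 for 38 genes with no HOX member. Of the members 8 of 11 were above 0, with a median of 0.89 beside 0.06 over all genes. That median was -0.014 without Runx2+/- MS-275 replicate 3, -0.44 without WT vehicle replicate 3, 1.66 without Runx2+/- vehicle replicate 2 and -0.60 without the 3 libraries that stood apart, so its sign rests on single libraries. For Hoxd1 it was 2.74 (SE 1.42, adjusted p = 0.873) by edgeR, and 0.62 without Runx2+/- MS-275 replicate 1. The drug differences of the genotypes are not shown to differ for any member.

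The cofactors of HOX proteins were far better covered than the HOX genes. Of the 9 TALE genes, all tested, 2 fell in WT MS-275 by edgeR and none rose. Over all genes tested in that comparison, 9.33% were lower and 9.67% higher. Meis2 was at 16.5, 13.2 and 23.0 CPM in WT MS-275, against 154, 167 and 73.9 CPM in WT vehicle. Meis1 was at 9.18, 8.10 and 10.3 CPM in WT MS-275, against 29.8, 30.8 and 58.6 CPM in WT vehicle. For both, all MS-275 libraries lay below all vehicle libraries, and the log2 fold changes were -2.90 (SE 0.88, adjusted p = 0.0471) for Meis2 and -2.11 (SE 0.50, adjusted p = 0.0434) for Meis1. In Runx2+/- embryos neither was called, with 11.7, 19.2 and 136 CPM of Meis2 in MS-275, against 105, 175 and 38.3 CPM in vehicle. Runx2+/- MS-275 replicate 3 again lay in the vehicle range.

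Of 23 listed regulators of HOX clusters 20 were tested, and in WT MS-275 1 rose and 2 fell by edgeR. These counts lie near the shares over all genes tested, 9.67% higher and 9.33% lower. Rnf2, the ubiquitin ligase of Polycomb complex PRC1, rose: it was at 133, 159.6 and 200.2 CPM, against 87.4, 81.4 and 87.4 CPM in WT vehicle. Its log2 fold change was 0.94 (SE 0.27, adjusted p = 0.0454) by edgeR. Cbx2, another PRC1 subunit, fell to 14.0, 12.9 and 12.9 CPM in WT MS-275, against 26.8, 27.4 and 26.6 CPM in WT vehicle. Its log2 fold change was -1.02 (SE 0.28, adjusted p = 0.0434) by edgeR. Kdm6b, a demethylase that removes the Polycomb mark, fell by 1.13 on the log2 scale (SE 0.31, adjusted p = 0.0437, edgeR). The groups of none of these 3 overlapped. Cdx1, Cdx2 and Cdx4, which act on trunk HOX genes in the tail bud, had no count in any library, the one with the trunk block included. These edgeR calls share the limit of Hoxd1: no gene was called in 8 of the 12 fits with 1 library left out.

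Of 17 noncoding genes of the HOX clusters 16 were counted and 4 tested, with none called in any comparison. Hoxb3os, antisense to Hoxb3, was at 0.929, 1.12 and 2.00 CPM in Runx2+/- MS-275, 0.651, 0.737 and 0.431 CPM in WT MS-275, at 0.416, 5.38 and 3.26 CPM in Runx2+/- vehicle and 0.279, 1.27 and 3.26 CPM in WT vehicle. It was highest in Runx2+/- vehicle replicate 2, with the replicate 3 libraries of both vehicle groups next. The library kit marks strand, while no source used here says how strand was handled when reads were counted, and 52.9% of the exon bases of Hoxb3 overlap another counted gene. Values of Hoxb3 and Hoxb3os are therefore uncertain. The same share is 18.2% for Hoxa3 and 8.78% for Hoxd3, and 0 for Hoxd1, Hoxa2, Hoxa4, Hoxa5, Hoxb8, Hoxc4, Hoxd8, Hoxd9 and Hoxc13. These shares leave out Hoxd4, which has no counted identifier. Hoxd4 lies within the span of Hoxd3 on the same strand, and 13.2% of its exon bases overlap a counted gene on that strand. The part of Hoxd4 reads in the Hoxd3 values was not tested.

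Some markers of other tissues were called in the same comparison, in which 9.67% of all genes tested were higher and 9.33% lower. In WT MS-275, 3 of 11 hindbrain and spinal cord markers tested fell by edgeR (Isl1, Pou4f1 and Tlx3) and none rose, and their sums were 0.982 to 3.91 CPM, against 15.7 to 52.2 CPM in WT vehicle. Of 15 neuron markers 2 fell, Nefl and Nefm. Of 13 trunk mesoderm and limb markers tested 3 fell, Pax3, Pax9 and Pitx1, which are also genes of the head, and none rose. Of 15 genes of the HOX-free head, 3 rose, Alx1, Alx4 and Dlx6, and 3 fell, Emx2, Six3 and Barx1. Osteoblast markers rose in 8 of 14 cases, with sums of 65905 to 82130.0 CPM in WT MS-275 and 10861 to 15742 CPM in WT vehicle. The part of these tissues in the HOX values was not tested.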

How the data were processed

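RNA of flash-frozen calvariae was made into stranded total RNA libraries and sequenced, per the labels' protocols. The deposited values are counts of reads per Ensembl gene that the authors made, 1 file per library, with no normalization. Per the submitters' processing notes, Trimmomatic, Bowtie2, SAMtools and HTSeq were used, without versions, and the genome build named there is GRCh38.p7, a human build, although the identifiers counted are mouse ones. How strand was handled in counting is not stated there. Lines that name no gene were left out; reads in no feature were 5.21% to 22.2% of uniquely placed reads.

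Identifiers were matched to GENCODE M21 (GRCm38). edgeR 4.0.16 in R 4.3.3 fitted all 12 libraries with 4 group means and 8 residual degrees of freedom, after TMM scaling and the filterByExpr filter, which kept 17967 genes. Quasi-likelihood tests with Benjamini-Hochberg adjustment over those genes used a threshold of 0.05. Each standard error (SE) is the absolute log2 fold change divided by the square root of the F statistic of that test. It was not estimated by the fit itself. The procedure was tested on simulated data. Sums, shares and levels per kilobase used TMM CPM. DESeq2 1.42.0, limma 3.58.1, other scalings, no filter, a replicate block and libraries left out were the alternatives. The members and lists were chosen with earlier results of these data known. Values are named for the 12 members of highest mean CPM, those called, and the 3 nearest the threshold in each drug comparison. Of the other lists, called genes were eligible, or the 4 of highest mean CPM, and a selection of these is named. Some further genes of these lists, among them trunk mesoderm and hair follicle markers, are named outside that rule. Replicate libraries of a group differed beyond sampling noise. Deviations from the group means of same-numbered Runx2+/- vehicle and WT vehicle libraries correlated at 0.22, 0.75 and 0.81. On that ground the numbers were used as a block for the vehicle libraries, which comes from the data, not from the labels. Correlations between libraries of different numbers were not computed, and replicate 3 stood apart in both vehicle groups. These values therefore cannot show that the numbers pair the libraries. Values of 1 HOX member and 1 cofactor are not reported here, and the sums include that member.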

Additional observations from a re-analysis of the deposited data

How the results depend on the processing

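The count of genes called in WT MS-275 against WT vehicle (3414 by edgeR) was 7535 with library size alone as the scaling, 7223 with DESeq2, 10887 without the 3 libraries that stood apart, 1 with limma-voom, 0 with no filter on low counts and 0 to 8480 with 1 library left out. The HOX members called, 1 in the edgeR fit reported, numbered 6 with library size alone, 5 with DESeq2, 3 without those 3 libraries, 0 with limma-voom, 0 with no filter and 0 to 4 with 1 library left out. With library size alone, the median over all genes became -0.95 on the log2 scale, with 526 genes higher and 7009 lower, and that of the HOX members -2.89. In Runx2+/- MS-275 against Runx2+/- vehicle, DESeq2 called 1280 genes, the fit without those 3 libraries 9543 genes and 5 members, and the fits without 1 library 0 to 5955 genes and 0 to 1 member. In Runx2+/- MS-275 against WT MS-275 the calls were 702 with DESeq2, 1 without those 3 libraries and 0 to 23 with 1 library left out. The interaction had 38 with DESeq2 and 0 to 1 with 1 library left out. Runx2+/- vehicle against WT vehicle had 0 in each of these settings. The cause of these changes was not tested.

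With the replicate number as a block, WT MS-275 against WT vehicle had 0 genes and 0 HOX members called by edgeR (7103 genes at an unadjusted p below 0.05). Over all 4 groups same-numbered libraries did not deviate together (correlations of -0.66 to 0.81, 6 of 18 over 0.1). For Runx2+/- vehicle against WT vehicle, where they did, the 6 vehicle libraries alone gave 0 genes called without the block and 0 with it (83 and 543 at an unadjusted p below 0.05), and HOX medians of 0.13 and 0.21. These fits were chosen after seeing the data, and the block changed no call in that comparison.

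Some estimates changed sign. In WT embryos without the 3 libraries that stood apart, the log2 fold changes of Hoxa2, Hoxb4 and Hoxd8 were 0.64, 0.011 and 0.054. With 1 library left out, Hoxa2 ranged from -2.45 to 0.61 and Hoxd8 from -1.19 to 0.065, both highest without WT vehicle replicate 3. In Runx2+/- embryos Hoxa2 was at 0.13 without the 3 libraries and Hoxa4 at 0.40 with limma-voom. With 1 library left out, Hoxa4 ranged from -1.52 to 1.34, Hoxb4 from -2.59 to 0.53 and Hoxa5 from -3.75 to 0.44, all highest without Runx2+/- vehicle replicate 2. The HOX sum of WT MS-275 was 10.3 CPM with DESeq2 size factors and 7.43 CPM with library size alone. With 1 library left out, the mean HOX sum was 10.5 to 16.6 CPM in Runx2+/- MS-275, 10.4 to 10.5 CPM in WT MS-275, 24.99 to 71.0 CPM in Runx2+/- vehicle and 15.95 to 37.8 CPM in WT vehicle. Depth limits the members with few counts: 27 of 38 were not tested.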
